A study of Mus musculus with 4 samples.

Results

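The genes described here are hepcidin and the genes around it in iron handling: Hamp, Hamp2, Tfrc, Tfr2, Trf, Fth1, Ftl1, Slc40a1, Bmp6 and Hfe. They were chosen by name, not by their values, and every non-control probe whose transcript accession mapped to 1 of these symbols was kept, giving 10 of the 23462 genes named on the array and 15 of its 56605 probes. The arrays measured total RNA from the liver of male mice on a C57BL/6 background, 24 weeks old, with 1 array for each of 4 conditions. The control mice were Lpiat1 F/F, which carry floxed Lpiat1 alleles without Cre, and the LKO mice were Alb-Cre; Lpiat1 F/F, so both genotypes shared the floxed alleles and a housing temperature given in the labels as 25 degrees. Mice of each genotype ate either standard chow (CE2) or a high fat diet (HFD, HFD-60) over 18 weeks, the HFD starting at 6 weeks of age. Lpiat1, listed on the array as Mboat7, encodes an acyltransferase that puts arachidonic acid into phosphatidylinositol. The albumin promoter drives Cre in hepatocytes, so the other cells of the liver keep the gene. How many mice contributed to an array is not given in the sources used here. With 1 array per condition there is no replicate of any condition, and no p-value or between-mouse error can be given; each difference below is a difference between 2 arrays.

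Hepcidin, the product of Hamp, is a peptide hormone that hepatocytes release when iron is plentiful; it binds ferroportin, the iron exporter encoded by Slc40a1, and leads to its degradation, so that less iron enters the plasma from the gut, macrophages and the liver. Hepatocytes read iron through BMP6, a ligand made mainly by sinusoidal endothelial cells, and through HFE and transferrin receptor 2 (Tfr2), which sense iron-loaded transferrin (Trf); interleukin-6 acts on Hamp through STAT3. Cells take up transferrin iron through transferrin receptor 1 (Tfrc) and store it in ferritin, built of heavy (Fth1) and light (Ftl1) chains. When iron is scarce in a cell, iron regulatory proteins stabilise Tfrc mRNA and block the translation of ferritin mRNA, so that a ferritin mRNA level is not a ferritin protein level.

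The mouse has a pair of hepcidin genes, Hamp and its copy Hamp2, which neighbour each other on chromosome 7. Their promoters are shown because the values of these genes parted between the 4 arrays, as given further on. The sequences are the 250 bases before the transcript start, from RefSeq on GRCm38.p6 and both on the minus strand, chr7:30944030-30944279 for Hamp and chr7:30924182-30924431 for Hamp2, written 5′ to 3′ with matches to 2 motifs in capitals.
Hamp: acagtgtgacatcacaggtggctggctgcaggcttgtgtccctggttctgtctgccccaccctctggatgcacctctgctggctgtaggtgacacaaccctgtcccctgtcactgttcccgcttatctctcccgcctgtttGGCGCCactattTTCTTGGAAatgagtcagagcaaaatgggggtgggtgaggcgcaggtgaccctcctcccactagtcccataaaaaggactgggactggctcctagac
Hamp2: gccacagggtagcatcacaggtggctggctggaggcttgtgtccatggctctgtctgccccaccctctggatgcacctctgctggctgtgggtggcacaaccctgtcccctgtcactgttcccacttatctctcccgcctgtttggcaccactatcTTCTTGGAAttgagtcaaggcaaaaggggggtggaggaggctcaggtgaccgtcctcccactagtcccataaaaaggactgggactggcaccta
The motifs searched, on both strands and by letters alone, were GGCGCC, the core of the element through which BMP signals are known to reach Hamp, and TTCNNNGAA, the spaced palindrome that STAT factors bind. Neither match overlapped the other. In a global alignment of 253 columns the windows were identical in 227 columns (89.7%), with 20 mismatches and 6 gaps. The TTCNNNGAA match, TTCTTGGAA, stood in both, from base 97 to base 89 before the start in Hamp and from base 94 to base 86 in Hamp2. GGCGCC stood in Hamp only, from base 109 to base 104 before the start, and the aligned bases of Hamp2 were GGCACC, a G4A substitution counted from the first base of the match with the Hamp base first. For scale, 9.59% of 32851 promoter windows of the same length held GGCGCC and 7.02% held TTCNNNGAA. Windows were on hand for 8 of the 10 genes, 12 windows in all, and among the other members GGCGCC stood in the first of the 2 Tfrc windows. A match of letters is a description of the sequence and not a binding site.

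The scanner's own flag put all 15 probes well above background on every array, and each was printed as 1 spot. Over all probes 52.96% to 56.98% of spots were well above background on an array and none was saturated. Levels are given as deposited signal and as log2 of the signal minus the array's 75th percentile, which was 222 in F/F chow, 213 in LKO chow, 263 in F/F HFD and 296 in LKO HFD. Taking this percentile off lowered every HFD minus chow difference by 0.25 in F/F and by 0.47 in LKO, so the unscaled difference of a member is given beside the scaled one where its sign is another. The spread quoted below is the SD of a difference between replicate spots of the same probe on 1 array: 0.071 for signals from 10000, 0.077 from 1000 to 10000, 0.13 from 100 to 1000 and 0.27 below 100, on the log2 scale. It leaves out everything that varies between mice and between arrays. Mboat7 itself read 1102 in F/F chow, 861 in LKO chow, 1181 in F/F HFD and 1100 in LKO HFD, 1.23-fold and 1.21-fold lower in LKO on the 2 diets. Its probe's place relative to the floxed exons is not given in the sources used here, so it does not check the labels. All 10 hepatocyte marker genes carried that flag on every array too.

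**Figure D1:**
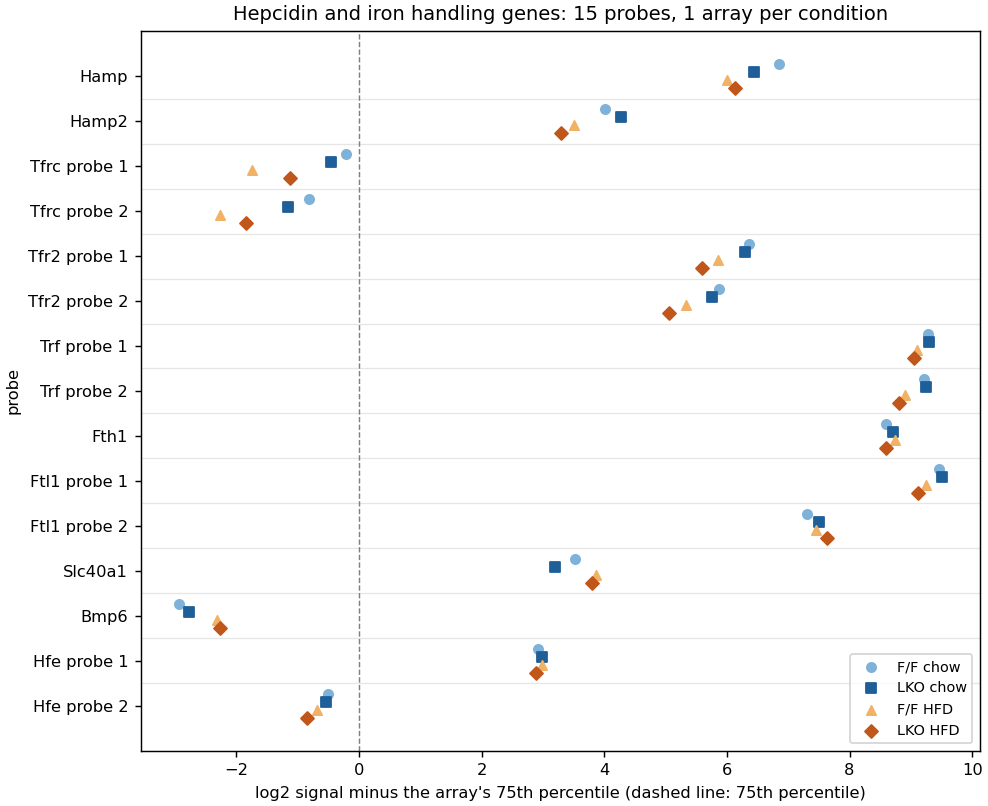
Level of each of the 15 probes on each array, as log2 signal minus the array's 75th percentile (horizontal axis), with 1 point per array coloured and shaped by condition. The 2 Tfrc probes spread most widely, with F/F HFD lowest at -1.74 and -2.27, while Fth1 and the first Hfe probe hold all 4 arrays within 0.14 and 0.10.

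Few of the genes differed by a large factor. With 1 array per condition a gene was counted as different when its brightest probe differed at least 2-fold. Between LKO and F/F on chow, no member reached 2-fold either way, where 1.11% of 14981 genes were at least 2-fold higher and 1.03% at least 2-fold lower. Between LKO and F/F on HFD, none did either, against 2.36% of 15528 genes higher and 1.91% lower. Between HFD and chow in F/F, Tfrc was 1 member at least 2-fold lower and none was higher, against 2.94% of 15358 genes lower and 5.21% higher. Between HFD and chow in LKO, none reached 2-fold, against 4.07% of 15242 genes lower and 8.12% higher. At shares this small, counts of 0 or 1 among 10 genes do not set the members apart from the rest of the array. Below 2-fold, 6 members were higher and 4 lower in LKO on chow (median 0.04, against 0.00 over all genes), and 3 were higher and 7 lower in LKO on HFD (median -0.08, against -0.03). For HFD minus chow, 4 were higher and 6 lower in F/F (median -0.19, against -0.02), and 2 higher and 8 lower in LKO (median -0.28, against -0.07). The signs of these medians rest on the scaling. With arrays scaled by quantiles the members had 0.11 in F/F and 0.07 in LKO, against 0.03 and 0.01 over all genes. Unscaled they had 0.06 and 0.20, against 0.22 and 0.39. For LKO on HFD the member median was 0.05 by quantiles and 0.09 unscaled. The 10 hepatocyte marker genes, a list outside the members, gave 10 of 10 lower values on HFD in each genotype, with medians of -0.30 for F/F and -0.52 for LKO. LKO against F/F on HFD gave 9 of 10 lower values (median -0.18). The scaling alone took 0.25, 0.47 and 0.17 off these comparisons, about the size of the hepatocyte marker medians. The part of the hepatocyte marker values in the members' values was not tested. Fewer cells of a type and less RNA per cell cannot be told apart in whole liver.

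Hamp, the hormone, had its highest level in F/F chow. Its signal was 25484 in F/F chow, 18554 in LKO chow, 16834 in F/F HFD and 20845 in LKO HFD. On the scaled level the order was F/F chow (6.84), LKO chow (6.44), LKO HFD (6.14) and F/F HFD (6.00), and each step was larger than the spot spread, the last being the smallest. In F/F, HFD was 1.80-fold below chow for Hamp, a log2 difference of -0.85, and 667 of 15358 genes (4.34%) were at least that much lower. In LKO the same difference was -0.30 (1.23-fold lower), with 28.6% of genes at or below it, and its sign rests on the scaling, since the unscaled signal was 0.17 higher on HFD. The genotypes parted by diet: Hamp was 1.32-fold lower in LKO on chow (-0.40) and 1.10-fold higher in LKO on HFD (0.14). In units of the spot spread these were -5.70 and 1.99.

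Hamp2, the neighbouring copy, ran the other way between genotypes. Its signal was 3560 in F/F chow, 4113 in LKO chow, 2991 in F/F HFD and 2912 in LKO HFD, so that LKO chow was the highest array and LKO HFD the lowest. LKO was 1.20-fold higher on chow (0.26) and 1.15-fold lower on HFD (-0.21), each the opposite sign to Hamp. The diet difference was -0.50 in F/F (1.41-fold lower) and -0.97 in LKO (1.96-fold lower), the latter with 661 of 15242 genes (4.34%) at or below it. A gap between 2 probes on the same arrays does not move when an array is multiplied by 1 factor. The difference of Hamp minus that of Hamp2 was -0.67 for LKO against F/F on chow, 0.35 on HFD, -0.35 for HFD against chow in F/F and 0.67 in LKO. Both promoters hold the TTCTTGGAA letters, and only that of Hamp holds GGCGCC. The part of these letters in the values of Hamp and Hamp2 was not tested. Probe sequences were not on hand, so it is not known how far either probe also reads the other transcript.

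Markers of another tissue moved between these arrays as well. Hamp2 is also known from the pancreas, and all 12 exocrine pancreas genes listed, amylase and the elastases among them, carried the flag for signal well above background on every array. Their summed level, in multiples of the 75th percentile, was 25.4 in F/F chow, 15.05 in LKO chow, 13.6 in F/F HFD and 50.4 in LKO HFD. The 12 genes were lower in LKO on chow (median -1.004) and higher in LKO on HFD (median 1.92), in 12 of 12 cases each. Hamp2 had the opposite sign in both, and Hamp the same sign. For HFD minus chow all 12 were lower in F/F (median -0.74), as were Hamp2 (-0.50) and Hamp (-0.85). In LKO all 12 were higher (median 2.22), where Hamp2 (-0.97) and Hamp (-0.30) were lower after scaling. The lowest Hamp2 array, LKO HFD, was the array with the highest pancreas level. The part of pancreas tissue in the hepcidin values was not tested. Acute phase genes, secreted by hepatocytes under inflammation, were listed because Hamp answers to the same signals: 17 of 19 were higher in LKO on chow (median 0.09), where Hamp was lower, and 12 of 19 were lower in LKO on HFD (median -0.14), 3 of them at least 2-fold, where Hamp was higher. The scaling took 0.17 off the comparison on HFD, more than the size of its median, so the sign of that median rests on the scaling. For HFD minus chow, 16 of the 19 were lower in F/F (median -0.39) and 18 of the 19 in LKO (median -0.81). Hamp, after scaling, was lower in both as well, at -0.85 and -0.30. In these comparisons the scaling took off 0.25 and 0.47. The part of the acute phase genes in the hepcidin values was not tested.

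**Figure D2:**
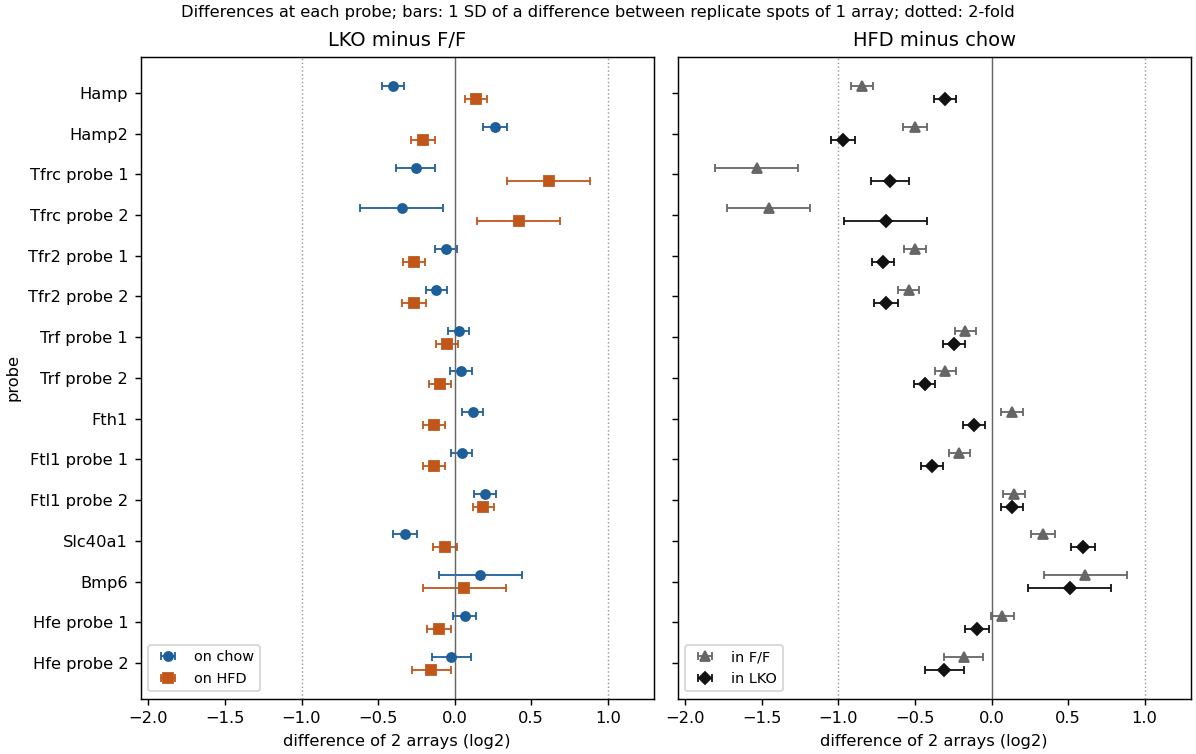
Log2 difference of each probe between LKO and F/F (left, on chow and on HFD) and between HFD and chow (right, in F/F and in LKO), after scaling to the 75th percentile. Bars are 1 SD of a difference between replicate spots of 1 array and do not cover mice or arrays. Dotted lines mark 2-fold, which only the 2 Tfrc probes pass, at -1.53 and -1.46 for HFD minus chow in F/F.

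Of the sensors upstream of Hamp, Tfr2 was lower on HFD at both of its probes. Its brighter probe read 18183 in F/F chow, 16822 in LKO chow, 15259 in F/F HFD and 14262 in LKO HFD, and the second read 12967, 11484, 10568 and 9866 in the same order, so both probes placed the arrays alike. Tfr2 was 1.41-fold and 1.46-fold lower on HFD in F/F at the 2 probes, and 1.63-fold and 1.61-fold lower in LKO. Between genotypes it differed by -0.06 and -0.12 on chow and by -0.27 at each probe on HFD. On the unscaled signal the diet difference kept its sign at about -0.22 to -0.30. Tfr2 and Hamp were thus both lower on HFD in both genotypes after scaling, but Hamp minus Tfr2 was -0.35 in F/F and 0.41 in LKO for that comparison.

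Hfe encodes a partner of the transferrin receptors at the hepatocyte surface, and its brighter probe varied least of the 15 after scaling. That probe read 1681 in F/F chow, 1691 in LKO chow, 2095 in F/F HFD and 2196 in LKO HFD. After scaling these lay within 0.10 of each other, and none of the 4 differences passed 2 times the spot spread. The dimmer probe read 156, 148, 163 and 165 in the same order, with differences of -0.02 and -0.15 between genotypes on chow and HFD and of -0.18 and -0.31 between diets in F/F and LKO. Unscaled, the last 3 of these were 0.02, 0.07 and 0.16, and at the brighter probe the scaled -0.10 on HFD and -0.09 for diet in LKO were 0.07 and 0.38. After scaling the probes took different signs for HFD minus chow in F/F, at 0.07 and -0.18, but on the unscaled signal both were higher, by 0.32 and 0.07. Across the array, differences of 2 probes of a gene disagreed with an SD of 0.28 to 0.41, so a gap of this size between probes is common.

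Bmp6, the ligand, was the dimmest member and was higher on HFD. Its signal was 29.0 in F/F chow, 31.3 in LKO chow, 52.6 in F/F HFD and 61.8 in LKO HFD, with both HFD arrays above both chow arrays. HFD was 1.53-fold higher in F/F (0.61) and 1.42-fold higher in LKO (0.51), where the spot spread at this signal was 0.27 from 15 probes. With normexp background correction, whose offset of 50 compresses dim probes, the differences were 0.11 and 0.10. The genotype differences, 0.17 on chow and 0.06 on HFD, were within the spot spread. Bmp6 and Hamp moved apart with diet, Bmp6 minus Hamp being 1.46 in F/F and 0.81 in LKO. Of 12 liver endothelium genes, the cells that make BMP6, 11 were higher on HFD in F/F (median 0.47) and 10 in LKO (median 0.41), with summed levels of 57.5 in F/F chow, 61.8 in LKO chow, 72.3 in F/F HFD and 74.0 in LKO HFD. Their part in the Bmp6 values was not tested.

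Tfrc, the receptor that takes up transferrin iron, gave the widest difference of any member. Its brighter probe read 193 in F/F chow, 155 in LKO chow, 79.0 in F/F HFD and 136 in LKO HFD. The second probe read 126, 95.8, 54.7 and 82.2 in the same order. Both probes placed F/F chow highest and F/F HFD lowest, with LKO HFD between F/F HFD and LKO chow. In F/F, HFD was 2.89-fold lower at the first probe (-1.53) and 2.74-fold lower at the second (-1.46), or -5.65 and -5.37 in units of the spot spread. Of 15358 genes, 181 (1.18%) were at least as much lower as the first probe. With normexp the differences were -1.04 and -0.85, the second no longer 2-fold. In LKO, HFD was 1.58-fold and 1.61-fold lower than chow (-0.66 and -0.69). Unscaled, these LKO differences were -0.19 and -0.22, the second within its spot spread of 0.27. LKO was 1.19-fold and 1.27-fold lower than F/F on chow, at -0.25 and -0.34, and 1.53-fold and 1.34-fold higher on HFD, at 0.62 and 0.42.

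Immature red cells are rich in Tfrc, so red cell genes were set beside it. The arrays held probes for 10 of the 12 genes listed, and 6 were well above background on every array; Epb42 and Rhag, markers of the red cell lineage, were not well above background on any. The summed level was 173 in F/F chow, 171 in LKO chow, 343 in F/F HFD and 174 in LKO HFD, led by the globin genes: Hba-a1 read 15433, 14626, 39794 and 22589 in that order. The F/F HFD array thus had the highest globin signal and the lowest Tfrc signal. Alas2, the haem synthesis enzyme of red cell precursors, read 4754, 4515, 4218 and 2465. Between genotypes it ran with Hba-a1, at -0.94 against -0.98 on HFD and -0.02 for both on chow, but between diets it was at -0.42 in F/F, where Hba-a1 was at 1.12. The part of red cells in the Tfrc values was not tested.

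Trf and the ferritin chains gave some of the brightest signals on the array, and their differences were small. Trf, the plasma carrier made by hepatocytes, read 137551 in F/F chow, 134678 in LKO chow, 145045 in F/F HFD and 157273 in LKO HFD at its brighter probe. The genotype differences at the 2 Trf probes lay between -0.09 and 0.04, within 2 times the spot spread, and they changed sign unscaled, to -0.03 and -0.01 on chow and 0.12 and 0.07 on HFD. HFD minus chow was -0.17 and -0.30 in F/F and -0.25 and -0.44 in LKO, but the unscaled signal gave 0.08 and -0.05 in F/F and 0.22 and 0.03 in LKO, so no direction with diet can be given. Fth1 read 85967 in F/F chow, 89726 in LKO chow, 112049 in F/F HFD and 114801 in LKO HFD. Its scaled differences ran from -0.13 to 0.14, each within 2 times the spot spread, while the unscaled signal was higher on HFD by 0.38 in F/F and 0.36 in LKO and higher in LKO on HFD by 0.04.

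The 2 probes of Ftl1 disagreed. The brighter read 155678 in F/F chow, 154535 in LKO chow, 159718 in F/F HFD and 163433 in LKO HFD, nearly level before scaling. The second read 34942, 38611, 45918 and 58770 in the same order, lowest in F/F chow and highest in LKO HFD. HFD minus chow was -0.21 in F/F and -0.39 in LKO at the brighter probe and 0.15 and 0.14 at the second, and LKO minus F/F on HFD was -0.13 and 0.19. Unscaled, the brighter probe gave 0.04 and 0.08 for diet, 0.03 for LKO minus F/F on HFD and -0.01 on chow, where the scaled value was 0.05. No direction for Ftl1 is therefore given. Ferritin genes have processed copies in the genome, and what each probe reads besides Ftl1 could not be checked here.

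Slc40a1, the only known cellular iron exporter, was higher on HFD in both genotypes. Its signal was 2560 in F/F chow, 1966 in LKO chow, 3837 in F/F HFD and 4122 in LKO HFD, both HFD arrays being above both chow arrays. HFD was 1.26-fold higher in F/F (0.34) and 1.51-fold higher in LKO (0.60), 4.36 and 7.73 times the spot spread, and the unscaled differences were 0.58 and 1.07. LKO was 1.25-fold lower on chow (-0.32) and differed by -0.06, within the spot spread, on HFD, where the unscaled difference was 0.10. Against Tfrc, the importer, the gap was wide: Tfrc minus Slc40a1 was -1.87 for HFD against chow in F/F and -1.26 in LKO, whereas between genotypes it was 0.07 on chow and 0.68 on HFD. Slc40a1 is also strong in macrophages, and of 12 Kupffer cell and macrophage genes 9 were higher on HFD in each genotype, with medians of 0.40 in F/F and 0.95 in LKO. Their summed level was 137 in F/F chow, 131 in LKO chow, 179 in F/F HFD and 236 in LKO HFD; its part in the Slc40a1 values was not tested.

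**Figure D3:**
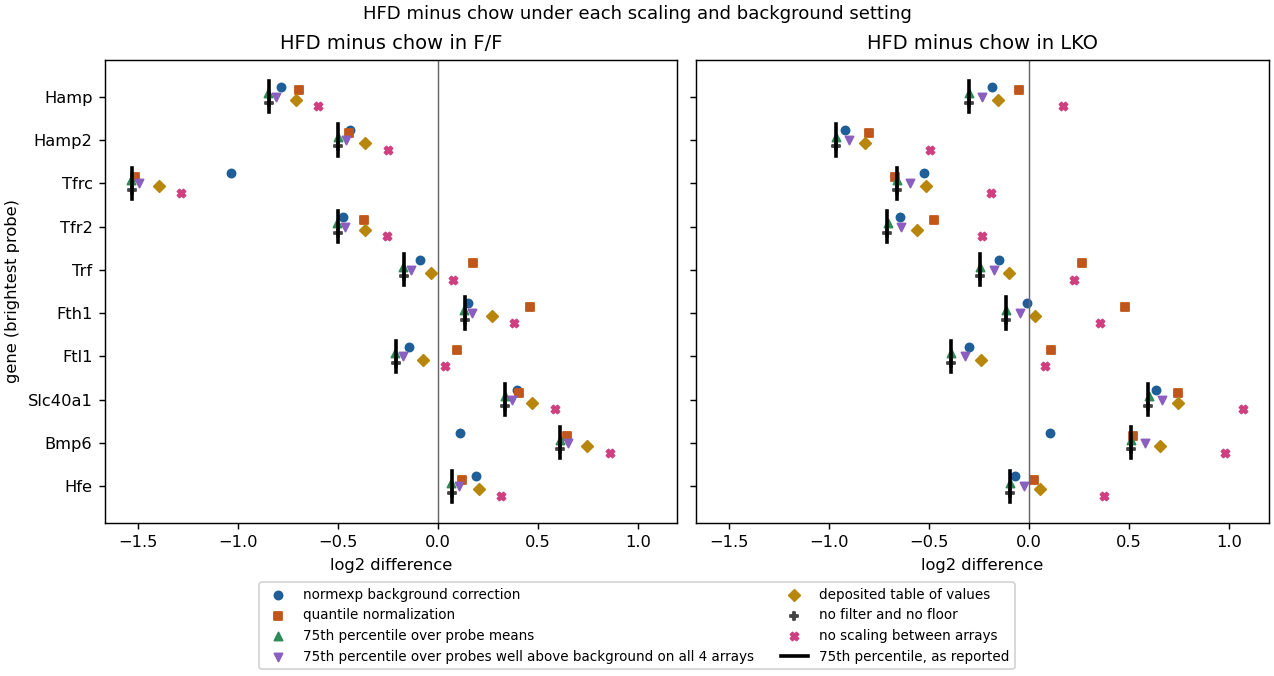
HFD minus chow of each gene's brightest probe (log2, horizontal axis) in F/F (left) and LKO (right), as reported (black bar) and under 7 other settings (points). Hamp2, Tfrc and Tfr2 stay below 0 and Slc40a1 and Bmp6 above 0 under every setting shown, whereas Trf, Ftl1 and, in LKO, Hamp, Fth1 and Hfe cross 0.

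A wider list of 84 iron genes in 7 roles was read in the same way; 81 had a value, and Erfe, the red cell hormone that lowers hepcidin, Ftmt, mitochondrial ferritin, and Cybrd1, an iron reductase of the gut, were not well above background on any array. In LKO against F/F on chow 0 of the 81 were at least 2-fold higher and 2 lower (median 0.06), where 1.11% and 1.03% of all genes were. On HFD 4 were higher and 0 lower (median -0.07), against 2.36% and 1.91% of all genes. For HFD against chow 1 was higher and 3 lower in F/F (median -0.08), against 5.21% and 2.94%, and 4 were higher and 8 lower in LKO (median -0.16), against 8.12% and 4.07%. The scaling took 0.47 off the comparison in LKO. Unscaled, only Scara5 of the 8 stayed at least 2-fold lower, while the 4 counted higher stayed 2-fold higher. Alas2, Cd163, Fgl1, Il6ra, Slc39a14, Socs3 and Steap4 were then lower by less than 2-fold, as was Steap4 in F/F. Shares over all genes without scaling are not given here. The median for diet in F/F did not keep its sign with arrays scaled by quantiles (0.02), as in the deposited table (0.05), or unscaled (0.16). The median in LKO kept its sign with quantiles and in the deposited table, but not unscaled (0.31).

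Among genes through which inflammation controls hepcidin, Socs3, the feedback inhibitor that STAT3 induces, gave the widest difference of the wider list. It read 7072 in F/F chow, 2097 in LKO chow, 515 in F/F HFD and 1398 in LKO HFD. That was 16.3-fold lower on HFD in F/F (-4.03) and 2.08-fold lower in LKO (-1.06), 3.25-fold lower in LKO on chow (-1.70) and 2.42-fold higher in LKO on HFD (1.27). F/F chow was the highest array for Socs3 and for Hamp and F/F HFD the lowest after scaling. Stat3 itself was lower on HFD at -0.76 in F/F and -0.95 in LKO, and Il6ra, the receptor subunit for interleukin-6 and the brightest gene of this role, read 7328, 7327, 5410 and 5062 in the order of arrays used above, 2.01-fold lower on HFD in LKO. Il6 was well above background in F/F chow (12.5) and LKO HFD (40.1) only, which puts LKO HFD at least 4.27-fold above F/F HFD and at least 3.58-fold above LKO chow; a second Il6 probe was not well above background on any array.

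Of the 19 BMP, SMAD and iron sensing genes with a value, 2 differed at least 2-fold, each in 1 comparison. Gdf15, a stress-induced ligand, read 1422 in F/F chow, 2262 in LKO chow, 7757 in F/F HFD and 5842 in LKO HFD, at 2.20 (log2) for HFD minus chow in F/F and 0.90 in LKO. Fgl1, a hepatocyte protein that binds BMP ligands and the brightest gene of this role, read 30747, 36312, 28295 and 24688 and was 2.04-fold lower on HFD in LKO. Id1 and Smad7, targets of BMP signals in hepatocytes, read 567, 458, 619 and 934 for Id1 and 143, 144, 181 and 232 for Smad7. For HFD minus chow Id1 was at -0.12 in F/F and 0.56 in LKO, and Smad7 at 0.10 and 0.22. The Id1 sign in F/F rests on the scaling, since its unscaled signal was higher on HFD, while that of Hamp was lower. After scaling, Id1 and Hamp had different signs in LKO, and Bmp6 and Hamp in both genotypes; on the unscaled signal Hamp, like Bmp6 and Id1, was higher on HFD in LKO, by 0.17. Tmprss6, the protease that trims the BMP co-receptor hemojuvelin, stayed within 0.20 in all 4 comparisons, while Hjv, hemojuvelin itself, was higher on HFD by 0.47 in F/F and 0.50 in LKO.

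Transport and reduction genes held several of the differences in LKO. Slc39a14, an importer of iron that is not bound to transferrin and the brightest gene of its role, read 3144 in F/F chow, 3304 in LKO chow, 2164 in F/F HFD and 2190 in LKO HFD, at -0.79 and -1.06 for HFD minus chow. Steap4, a metal reductase, read 1706, 2033, 870.2 and 1268, at -1.22 and -1.15. Steap2, of the same family, was high in LKO HFD alone, reading 65.9, 75.3, 79.2 and 254, and its second probe, dimmer, was well above background on the 2 LKO arrays only. Heph, a ferroxidase that works with ferroportin, read 35.6, 25.0, 67.5 and 85.0 and was 2.46-fold higher on HFD in LKO.

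Plasma carriers and scavengers were led by Hp, haptoglobin, which was brightest and read 158421, 162044, 160561 and 157033. Scara5, a ferritin receptor, read 353 in F/F chow, 455 in LKO chow, 91.9 in F/F HFD and 192 in LKO HFD, 4.56-fold lower on HFD in F/F and 3.28-fold lower in LKO; its second probe gave -1.79 and -1.35 for the same comparisons. Cd163, the macrophage receptor for haemoglobin bound to haptoglobin, read 659, 643, 525 and 375, 2.38-fold lower on HFD in LKO, where 9 of the 12 macrophage genes were higher and 3 at least 2-fold lower, Cd163, Marco (-1.32) and Timd4 (-1.12). Ltf, lactoferrin, was not well above background in LKO chow and dim elsewhere, at 18.5 in F/F chow, 19.6 in F/F HFD and 51.6 in LKO HFD, which is 1.23 (log2) above F/F HFD.

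No storage, haem or iron-sulphur gene differed 2-fold between genotypes. Among 6 storage and iron regulatory genes with a value, Pcbp1, a chaperone that hands iron to ferritin and the brightest, stayed within 0.09. Aco1 and Ireb2, the iron regulatory proteins that act on Tfrc and ferritin mRNA, were at -0.33 and -0.30 for LKO minus F/F on HFD. All 12 iron-sulphur cluster genes were lower in LKO on HFD, from -0.34 to -0.00 (median -0.17), about the size of the 0.17 that the scaling took off this comparison; Fdx1, the brightest, was at -0.31. Of 17 haem genes, 12 were lower in LKO on HFD (median -0.13), and this median was also smaller in size than that 0.17. Alas1, the first enzyme of haem synthesis in liver and the brightest of them, read 50602, 51771, 80644 and 60687. HFD minus chow for Alas1 was 0.43 in F/F and -0.24 in LKO, the latter a sign that the unscaled signal does not share. LKO was 1.49-fold lower for Alas1 on HFD (-0.58) and 1.92-fold lower for Alas2 (-0.94), and Hmox1, which breaks down haem, was at 0.44. Alas2 was also 2.54-fold lower on HFD in LKO.

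**Figure D4:**
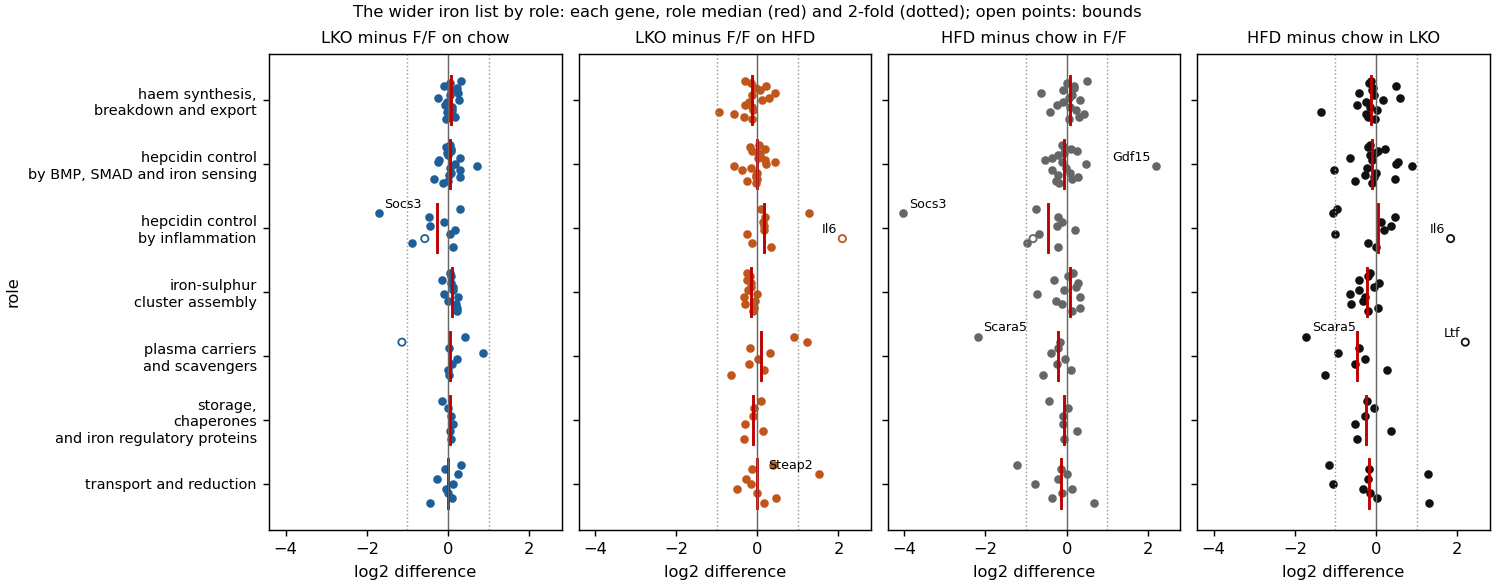
Log2 difference of each of the 81 genes of the wider iron list with a value, by role, in the 4 comparisons, with the median of each role (red) and 2-fold (dotted); open points are bounds, where 1 array was not well above background. Socs3 stands farthest out, at -4.03 for HFD minus chow in F/F, while most genes lie within 2-fold.

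The genes most like Hamp over the 4 arrays were sought among 13980 other genes well above background on all of them, by the distance between the 4 centred log2 levels. The nearest 3 were Arhgap27os3 (0.060), Ccnl1 (0.064) and Gnl3 (0.070). Arhgap27os3 was dim, reading 21.2 in F/F chow, 15.7 in LKO chow, 14.7 in F/F HFD and 18.3 in LKO HFD. The spot spread of a difference at such signals was 0.27. Ccnl1 and Gnl3 read between 293 and 626, where it was 0.13. Among the other members Tfr2 came nearest, at rank 1282 and a distance of 0.38, followed by Ftl1 at rank 2659 and 0.46 and Trf at rank 3291 and 0.49. Hamp2 stood at rank 4672, at 0.55, and Bmp6 farthest, at rank 11896 and 1.21. Over only 4 arrays many genes share an order, so nearness here is a description of these arrays.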

How the data were processed

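Total RNA from liver was labelled with Cy3 and hybridised to Agilent SurePrint mouse arrays, 1 colour and 1 array per condition. The deposited intensity values are processed signals as Agilent Feature Extraction 12.0.3.1 gave them for the authors, with background subtracted and no scaling between arrays; a deposited table of signal values holds the same probes, each array multiplied by 1 factor (2.10 to 2.63), with medians of 33.2 to 36.1. Grouping followed the sample titles. Control spots were left out and log2 was taken. Spots of a probe were averaged without those flagged as outliers (76 to 132 spots an array), unless all its spots were flagged. Each array's 75th percentile over all non-control spots, flagged ones included, was subtracted (Python 3.11.15, pandas 2.3.3, numpy 2.4.6). Of the probes, 59.7% were named through their transcript accession in RefSeq (GRCm38.p6), and a gene's brightest probe stood for it. Called meant at least 2-fold; where 1 array was not well above background, the difference is a bound against the lowest signal well above background. No test was run, since each condition had 1 array, and that number limits the precision. Genes named were all members with every probe, every gene of the wider iron list at least 2-fold different in any comparison, the brightest gene of each role, Mboat7 and the 3 genes nearest to Hamp; Stat3, Id1, Smad7, Tmprss6, Hjv, Aco1, Ireb2, Hmox1, the genes not above background and the marker genes were added after their values were seen. Members and lists were chosen with earlier results of these data known. Alternatives were normexp (offset 50; limma 3.58.1, R 4.3.3), quantile normalization, other percentiles, the deposited table, other filters, fold thresholds and probe rules, and, added after seeing the data, no scaling. The labels and the methods name different RNA kits and housing temperatures.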

Additional observations from a re-analysis of the deposited data

Results flagged for a closer look

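In 4 members the difference between LKO and F/F had opposite signs on chow and on HFD. Both sizes were over 0.089, the spot spread over all probes. With 1 array per condition this was seen but not tested. The share of all genes that met this rule is not given here, so the count does not set the members apart. At the second Tfrc probe the differences on chow and on HFD were -1.27 and 1.55 times the spot spread at its own signal. LKO minus F/F on HFD less the same on chow was 0.542 for Hamp (1 probe), -0.471 for Hamp2 (1 probe), 0.869 and 0.764 for the 2 Tfrc probes and -0.251 for Fth1. The Fth1 value is also that by which HFD minus chow, of opposite sign in F/F and LKO, differed between genotypes, again not tested. Both Fth1 patterns rest on the scaling: LKO minus F/F on HFD turned to 0.13 with quantiles and 0.04 unscaled, the sign it had on chow (0.12 and 0.06), and HFD minus chow in LKO turned to 0.48 and 0.36, and to 0.03 in the deposited table. Hamp and Tfrc moved 1 way and Hamp2 and Fth1 the other, and the differences that make up the Fth1 value were each within 2 times the spot spread. No group held enough arrays for a check of outlying samples, and no array was left outside the comparisons.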

How the results depend on the processing

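No paired analysis was possible because each condition had 1 array, and no array could be left out in turn. The number of members at least 2-fold different in LKO against F/F was 0 on chow under every setting run, and on HFD 1 at 1.5-fold and 0 otherwise. For HFD against chow it was 1 in F/F, but 3 at 1.5-fold, 0 at 4-fold and 2 with every probe counted, and 0 in LKO, but 4 at 1.5-fold and 1, Slc40a1, with no scaling between arrays. Shares over all genes at 1.5-fold, with every probe counted or without scaling are not given here. Those counts therefore do not set the members apart. The median of the wider iron list for HFD minus chow was 0.023 in F/F and -0.0091 in LKO with quantile normalization, 0.052 and -0.010 in the deposited table, and 0.164 and 0.314 with no scaling, which also gave 0.103 for LKO minus F/F on HFD. Of the 60 differences at the 15 probes, 60 moved by less than the spot spread with the percentile over probe means, over probes above background throughout, or with no filter; 30 moved by more in the deposited table, 26 with quantiles, 20 with normexp and 45 with no scaling. None that had passed the 2-fold threshold changed sign. The median of all genes shifted to 0.13 for LKO minus F/F on HFD, 0.22 for HFD minus chow in F/F and 0.39 in LKO with no scaling, to 0.11 in F/F in the deposited table, and to -0.12, -0.12 and -0.21 for the same 3 comparisons with no filter. The cause of these shifts was not tested. Signal over background limits Bmp6 and Tfrc most.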
